A study of Mus musculus with 32 samples.

Results

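The cells described here are the epithelial cells of the mouse lung bud between embryonic day (E) 9.5 and E11.5. They are the 52 cells that carry both the organ name lung and the cell type label Epi in the cell annotation published with the study, out of 224 lung cells and 1916 cells in all. The lung cells of E9.5 embryo 3, which were sequenced in 1 library with liver cells of the same embryo, are among them. The annotation also labels 110 epithelial cells of the intestine, 48 of the liver and 79 of the skin, so that the 52 cells are part of 289 epithelial cells in 4 organs, and 125 mesenchymal cells of the lung.

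All embryos were C57BL/6J without any treatment or engineered allele. Of the 3 embryos taken at E9.5, embryo 2 gave 3 of the epithelial cells, embryo 3 gave 12 and embryo 1 gave none. The 2 embryos at E10.5 gave 5 and 11 cells, and the 2 embryos at E11.5 gave 18 and 3. By their labels all embryos were male except for embryo 2 of E9.5, which was female, and HiSeq 2500 was used for embryos 1 and 2 of E9.5 and HiSeq 4000 for the rest. A single embryo of these cells thus stands for the female sex and for HiSeq 2500, so that sex and sequencer cannot be told apart. E9.5 embryo 3, of the same day, was male and on HiSeq 4000. Cells were picked by mouth pipette from dissociated organ tissue, and the authors assigned the epithelial group by clustering the activity of regulons (a factor with its target genes), which is computed from expression. Expression thus contributed to the choice of cells in each organ, whereas the organ was known from dissection.

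The lung begins as an outgrowth of the ventral foregut endoderm. Endoderm cells that turn on the homeobox factor Nkx2-1 take the respiratory path, and the tube they form buds and branches into the surrounding mesenchyme. Fibroblast growth factor from the mesenchyme reaches receptors on the bud epithelium and induces the ETS factors Etv4 and Etv5, while the epithelium sends out Shh, Wnt7b and other ligands. In the branching lung, Sox9 and Id2 mark the distal tips that will form alveoli, and Sox2 marks the proximal tubes that will form airways. Intestine and liver epithelium derive from the same endoderm, whereas skin epithelium derives from ectoderm.

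Each value is the number of unique molecular identifiers (UMIs, tags that mark 1 molecule each) that a gene had among 1000000 UMIs in its cell, which the authors name TPM. The level of a gene in a cell is log2(TPM/10 + 1), a gene counts as expressed at a level of 1 or more, and embryos with at least 3 such cells were given the mean level of those cells. Values of a day are given in the order of embryo number, which for E9.5 means embryos 2 and 3. A change by 1 in this level is a doubling only for genes well above 10 TPM, and is smaller than the fold change of low genes. The embryo was the replicate, with n = 6 for lung epithelium, 7 for intestine, 6 for liver and 6 for skin. Depth in the 52 cells ran from 45273 to 1243934 UMIs with a median of 256424, and 6 cells lay under 100000 UMIs, where 1 UMI alone reaches the level of expression. The 3 cells of E9.5 embryo 2 were the deepest, with a median of 924171 UMIs.

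The label was checked against the markers of lung bud epithelium. Nkx2-1 was expressed in 49 of the 52 cells (94.2%, 95% Wilson interval 84.4 to 98.0%). It was expressed in 0 of 109 intestinal and 0 of 78 skin epithelial cells, which allows shares of up to 2.75% and 3.85%, in 1 of 47 liver epithelial cells, and in 9 of 125 mesenchymal cells of the lung. Such intervals and limits cover counting error only. Epcam, a cell adhesion protein of epithelia, and Capn6, a calpain that lacks protease activity, were expressed in 52 of 52 cells, and Etv5 in 44. Epcam is among the genes by which the authors named the epithelial group, so it is no independent check of the label. No UMI of Nkx2-1 was found in 2 cells. A cell of E9.5 embryo 2 with 1243934 UMIs had Foxa2 at 3.58, Shh at 4.12 and Sox2 at 3.0, and Etv5 at 0. A cell of E11.5 embryo 1 with 101386 UMIs had Cdh1 and Foxa2 at 0, the intermediate filament gene Vim at 4.98 and Etv5 at 6.58. The first of them thus held other genes of foregut endoderm, and E-cadherin was not detected in the other. Both held the cardiac myosin light chain gene Myl7, at 4.55 and 4.37, which was not particular to them. It had UMIs in all 3 epithelial cells of E9.5 embryo 2, in 11 of 12 of E9.5 embryo 3 and in 6 of 18 of E11.5 embryo 1.

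Against the mean of the other 3 organs, the largest positive difference of lung bud epithelium was that of Nkx2-1. Of 15608 genes tested with limma on the embryo means, 326 passed an adjusted p of 0.05 with a log2 difference of at least 1 (2.09% of the genes), of which 128 were higher and 198 lower in lung. By edgeR on summed UMIs the counts were 567 higher and 247 lower. Within the HiSeq 4000 embryos, 378 genes passed, 146 of them higher. Taken organ by organ, 351 genes (2.25%) differed from intestine, 133 of them higher (0.852%) and 218 lower (1.4%). Against skin the number was 663 (4.25%), with 216 higher (1.38%) and 447 lower (2.86%). Against liver it was 1015 (6.5%), with 362 higher (2.32%) and 653 lower (4.18%), while edgeR gave 947 higher and 784 lower. These comparisons share the lung embryos, and the larger count against liver was not tested against the others.

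Nkx2-1 had the smallest adjusted p of the named genes. Its level was 2.67 and 3.22 at E9.5, 3.66 and 4.00 at E10.5, and 3.61 and 2.76 at E11.5. All 6 lung values lay above the highest value of the 19 other embryo means, 0.74 in liver. Both E10.5 values lay above those of the other days. The difference from the other organs was 3.24 (SE 0.13, adjusted p = 2.52e-24), and the slope on day was 0.12 per day (adjusted p = 0.974).

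Among Nkx2-1, Etv5, Epcam and Capn6, it was Capn6 that had the narrowest range of embryo levels, between 4.15 and 4.83 (4.57 ± 0.25, SD). The gene was present in other epithelia too, at 2.19 in skin, 1.8 in intestine and 0.25 in liver, and all 6 lung values lay above all of those. The difference was 3.15 (SE 0.25, adjusted p = 1.37e-13). Etv5, a target of fibroblast growth factor signalling, was more uneven, at 2.33 and 4.4 in the E9.5 embryos, 4.94 and 4.91 at E10.5, and 2.58 and 3.63 at E11.5. The lowest lung value was still above the highest of the other organs, 2.23 in an intestinal sample, although E9.5 embryo 2 and E11.5 embryo 1 came close to it. The difference was 3.15 (SE 0.27, adjusted p = 2.83e-12).

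Beside the markers, several of the genes with the largest differences encode secreted proteins. Thbs1, the matrix glycoprotein thrombospondin 1, was at 0.85 and 3.04 at E9.5 and between 4.19 and 4.52 in the 4 later embryos, a difference of 2.77 (SE 0.35, adjusted p = 7.23e-08). Apart from the first embryo, these values lay above all other organs, where skin came nearest with a mean of 1.58. Mia, a small secreted protein first found in melanoma, ranged from 0.66 to 4.78 with a median of 2.62, and was at 0 in every intestinal sample and at most 0.34 in liver. It differed by 2.69 (adjusted p = 3.2e-10).

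Ces1d, a carboxylesterase, lay between 1.84 and 3.04 in the 6 lung samples and at 0 in all 6 skin samples, and differed by 2.46 (SE 0.11, adjusted p = 1.73e-22). It was expressed in 42 of 52 cells. Gm8909, a predicted gene on chromosome 17, lay between 1.34 and 3.79 and differed by 2.70 (adjusted p = 2.53e-16). Both genes belong to families of similar copies, among which uniquely mapped reads can be split unevenly, so their levels are uncertain.

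**Figure D1:**
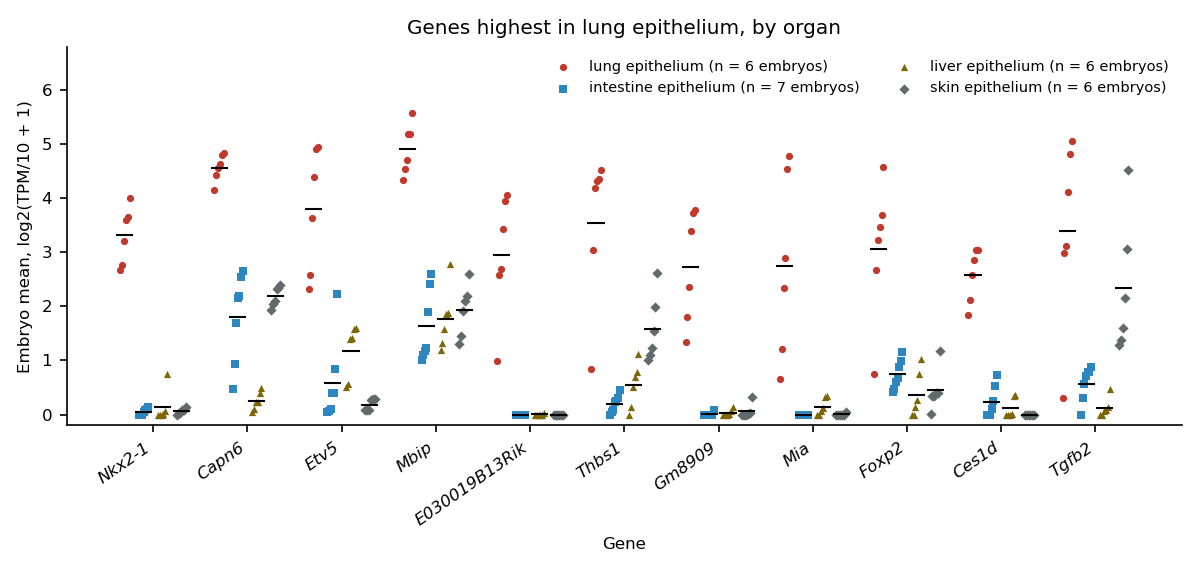
Levels, as log2(TPM/10 + 1), of 11 named genes with a large excess in lung epithelium over the other organs. Each point is the mean of 1 embryo, black bars are the mean over embryos, and colours and shapes stand for lung (n = 6), intestine (n = 7), liver (n = 6) and skin epithelium (n = 6). The 6 lung points of Nkx2-1 lie between 2.67 and 4.00, and all points of the other organs at or under 0.74.

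Another gene with a difference near that of Nkx2-1 lies in its neighbourhood on chromosome 12. Mbip, which encodes a protein that binds a MAP kinase kinase kinase, had levels of 4.54, 5.19, 5.57, 5.19, 4.33 and 4.70 in the 6 embryos, in the order of age. All lay above the highest value elsewhere, as in the 3 other organs Mbip was detectable but low, with means of 1.64, 1.77 and 1.93. The difference was 3.14 (SE 0.23, adjusted p = 1.68e-14), and Mbip was expressed in 52 of 52 cells. E030019B13Rik, annotated as the surfactant associated pseudogene Sfta3-ps, was at 1.0 and 2.69 at E9.5, 3.96 and 4.05 at E10.5, and 3.44 and 2.58 at E11.5. It was at 0 in all intestinal and skin samples and at most 0.03 in liver, a difference of 2.95 (adjusted p = 6.63e-16).

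On mm10, Nkx2-1 occupies chr12:56531958-56536908 on the minus strand, and E030019B13Rik chr12:56488321-56529427 on the same strand, 2531 bases beyond the 3′ end of Nkx2-1. Mbip occupies chr12:56328303-56345894, also on the minus strand and 186064 bases away. Farther along, the long non-coding RNA Gm19990 at chr12:56253243-56266384 on the plus strand, was at 0 in the other organs and between 0.69 and 2.17 in lung (difference 1.21, adjusted p = 1.02e-13). The next tested genes on either side were not called. Brms1l differed by 0.05 (adjusted p = 0.932), Pax9 by -0.02 (adjusted p = 0.694), and Slc25a21, which overlaps Pax9, by -0.42 (adjusted p = 0.0276, below the size required). Within 1000000 bases, Insm2, Ralgapa1, Prps1l3 and Mipol1 were not called either, so that Nkx2-1, E030019B13Rik, Mbip and Gm19990 were the called genes among those tested there. Whether reads were counted by strand is not given in the sources used here, so reads of overlapping or adjoining transcripts in this stretch may not be separated. Gm19990 and the flanking genes were looked at after the values of Nkx2-1 and Mbip were seen.

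The 250 bases before the start of the neighbouring pair are shown because both genes stood higher in every lung sample than in any sample of the other epithelia. They are RefSeq sequence of GRCm38.p6 (mm10), minus strand, chr12:56536909-56537158 for Nkx2-1 and chr12:56345895-56346144 for Mbip. Capitals mark a match to CTCAAG or, on the other strand, CTTGAG, the core letters bound by NK2 homeobox proteins such as Nkx2-1.
Nkx2-1: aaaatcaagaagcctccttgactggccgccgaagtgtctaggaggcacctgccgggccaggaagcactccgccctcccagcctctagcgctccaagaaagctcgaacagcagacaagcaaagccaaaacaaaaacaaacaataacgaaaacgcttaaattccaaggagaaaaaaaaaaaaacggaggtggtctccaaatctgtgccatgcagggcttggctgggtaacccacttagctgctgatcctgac
Mbip: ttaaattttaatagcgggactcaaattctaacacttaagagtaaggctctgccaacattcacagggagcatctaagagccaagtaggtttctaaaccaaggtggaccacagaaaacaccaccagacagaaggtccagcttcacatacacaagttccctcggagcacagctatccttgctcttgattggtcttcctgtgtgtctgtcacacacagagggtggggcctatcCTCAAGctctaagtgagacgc
Among 32851 promoters of this length, 13.3% held such a match. Of the 7 named genes high in lung for which RefSeq gave a promoter, Mbip alone held it. The forkhead letters TGTTTAC or GTAAACA were in 3.17% of all promoters and, of these 7 genes, in Etv5, and the ETS letters CCGGAAG or CTTCCGG were in 6.91% and in none of the 7. A match is a description of the letters and not a binding site.

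**Figure D2:**
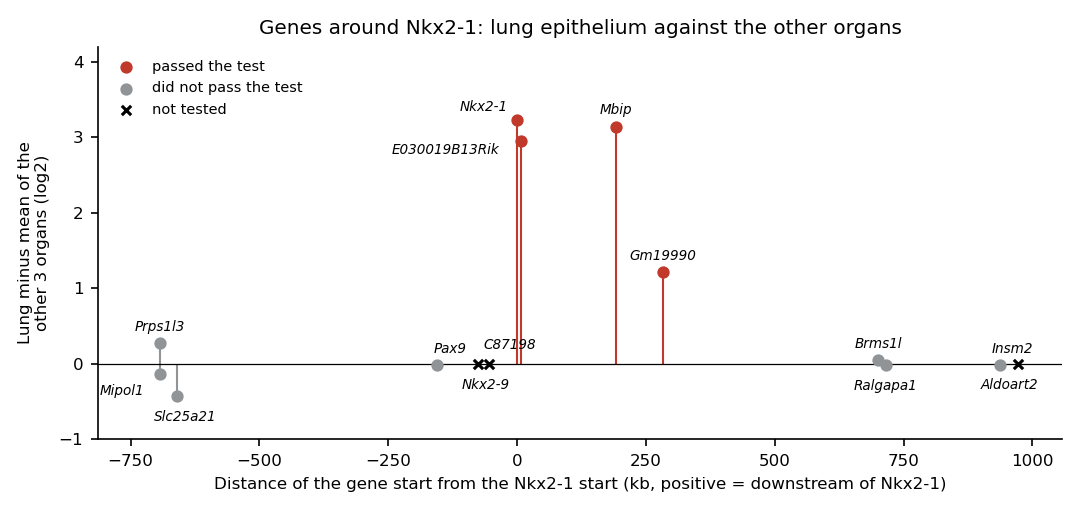
Log2 difference of lung epithelium from the mean of the other 3 organs (vertical axis) for genes around Nkx2-1 against the distance of their start from that of Nkx2-1 in kb (horizontal axis, positive in the downstream direction). Red points were called, grey points were not, and crosses were not tested. Nkx2-1, E030019B13Rik, Mbip and Gm19990 lie at 3.24, 2.95, 3.14 and 1.21, and the flanking genes between -0.42 and 0.27.

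Of a list of 24 transcription factors known from the respiratory endoderm, 10 were higher in lung and 1 was lower, where 0.82% of all tested genes were called higher and 1.27% lower. The median difference over the list was 0.68, against -0.02 over all genes. The list counts between organs that follow are to be read against the same 0.82% and 1.27% of all genes. By edgeR, 5.22% of all genes were called. By limma, 3279 of the 15608 tested genes had an unadjusted p under 0.05, against which such counts are to be read. Beside Nkx2-1 and Etv5, the forkhead factors Foxp2, Foxa2 and Foxa1, the Iroquois factors Irx2, Irx3 and Irx5, Mycn and Sox9 made up the 10. Foxa2, a pioneer factor of endoderm, lay between 2.22 and 3.84 with a median of 3.47, against means of 1.94 in liver, 0.47 in intestine and 0.01 in skin. It was higher in lung than in each of them, by 1.24 in liver (adjusted p = 3.15e-05), 2.71 in intestine and 3.17 in skin, although 2 of the lung samples lay within the range of liver.

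Foxa1 had levels of 2.0 to 3.46 in lung and a mean of 3.5 in intestine (difference -0.79, adjusted p = 0.052), and its difference of 1.10 from the mean of the others (adjusted p = 0.000279) was carried by liver (1.39) and skin (2.69). Foxp2, which acts in lung together with its relative Foxp1, was at 0.75 in E9.5 embryo 2 and between 2.67 and 4.58 in the other embryos, and differed by 2.55 (adjusted p = 2.53e-08). Foxp1 had a mean of 3.05 ± 0.51 in lung and did not pass (0.22, adjusted p = 0.716).

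Of the Iroquois genes, Irx3 and Irx5 had skin levels near those of lung. Irx3 lay between 1.93 and 3.42 in lung and averaged 2.19 in skin, where the difference was 0.45 (adjusted p = 0.163), whereas against intestine and liver it was 2.62 and 2.51. Irx5 had a mean of 1.85 in lung and 1.70 in skin, and 0.00 in both intestine and liver. Irx2 was also called against skin, with a mean of 2.41 ± 1.09 against 1.04, and differed by 1.94 from the mean of the others (adjusted p = 5.68e-09). Irx1 differed by 0.91 (adjusted p = 1.16e-08), below the size required.

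Mycn, which keeps distal lung progenitors cycling, lay between 2.84 and 4.13 and was above each of the other organs, with a difference of 1.85 from their mean (adjusted p = 2.38e-06). Sox9 was at 1.67 and 4.16 at E9.5, 4.17 and 4.99 at E10.5, and 1.65 and 2.69 at E11.5. Its difference was 1.73 (SE 0.36, adjusted p = 0.000659), while against intestine alone it was 1.02 (adjusted p = 0.162). Id2, the other tip factor, stood at 6.10 ± 1.43 in lung and at 6.16, 6.17 and 5.58 in the other organs, and did not pass. Meis1 was the member that was lower, with a lung mean of 0.92 and a difference of -1.31 (adjusted p = 0.00124).

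Of 20 factors of the neighbouring foregut organs, 7 were at 0 in all 52 cells. Of the 16 tested, edgeR called 3 higher and 0 lower, while limma called 1 higher and 3 lower. Those lower were Hhex, Onecut2 and Hnf4a, which are liver factors with means of 4.09, 3.19 and 2.40 there. Hnf4a was at 0 in all 6 lung samples. Isl1, a LIM homeobox factor of foregut endoderm and its mesoderm, was higher, at 1.45 ± 1.03 and with a difference of 1.18 (adjusted p = 0.00128), but this difference was 0.88 without E9.5 embryo 2, below the size required. Hnf4a (-1.0) likewise fell short in size without E11.5 embryo 2 (-0.88), E11.5 embryo 1 (-0.97) or E10.5 embryo 1 (-0.99). By edgeR, Hhex, Onecut2 and Hnf4a did not pass (adjusted p = 0.632, 0.187 and 1).

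Among 21 tested ligands that an epithelium can send to its mesenchyme, Wnt7b, Tgfb2 and Shh were higher in lung and Wnt6 and Bmp7 lower, with a median over the list of -0.15. By edgeR, 4 of the 21 were higher and 0 lower. Wnt7b, which drives growth of the lung mesenchyme, was at 0.90 and 3.24 at E9.5, 3.84 and 3.83 at E10.5, and 3.02 and 3.66 at E11.5. In intestine and liver no sample exceeded 0.14, while skin averaged 2.06, and the difference was 2.38 from the mean (SE 0.25, adjusted p = 1.14e-09) and 1.03 from skin (adjusted p = 0.024). Tgfb2 was at 0.31 in E9.5 embryo 2 and between 2.99 and 5.05 in the other 5 embryos, with a difference of 2.39 (adjusted p = 0.00019), and it was not called against skin (1.07, adjusted p = 0.26).

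Shh, the hedgehog ligand, was found in lung and intestine. Its lung levels were 3.85 and 1.71 at E9.5, 2.62 and 2.29 at E10.5, and 1.97 and 1.30 at E11.5, its intestinal mean was 3.16, and in liver and skin no sample exceeded 0.02. The difference of 1.24 from the mean of the others (adjusted p = 0.000112) was 0.87 without E9.5 embryo 2, below the size required, and against intestine it was -0.87 (adjusted p = 0.0415, not called). Wnt6 had a mean of 5.69 in skin and stood at 0 in 4 of 6 lung samples, and its difference of -1.68 from the mean (adjusted p = 1.45e-10) turned to 2.34 (adjusted p = 0.0849) by edgeR on summed UMIs. Bmp7 differed by -1.21 from the mean and by -2.23 from skin (adjusted p = 1.29e-07), and was called against neither intestine nor liver, nor by edgeR against the mean (adjusted p = 0.0781). Bmp4, expressed in 19 of 52 cells, did not pass (0.15, adjusted p = 0.832).

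Of 20 tested genes of fibroblast growth factor reception and response, Etv5 alone was called, and the median was -0.03. Etv4 had only 21 UMIs over all lung epithelial cells together. The receptor Fgfr2 lay between 2.13 and 3.05 in lung and averaged 1.74 in intestine, 0.78 in liver and 3.5 in skin (difference 0.60, adjusted p = 0.145). The feedback inhibitors Spry1 and Spry2 had differences of 0.79 (adjusted p = 0.012) and 0.51 (adjusted p = 0.247), and Dusp6 one of 0.18 (adjusted p = 0.863).

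Of 28 tested genes of Wnt reception and response, 4 were higher and 1 was lower, with a median of 0.01. The share called was 17.9%, against 2.09% of all genes. Sp5, a direct Wnt target, had levels of 2.02 and 3.14 at E9.5, 1.64 and 2.81 at E10.5, and 1.07 and 0.97 at E11.5, with means of 0.90, 0.55 and 0.07 in intestine, liver and skin (difference 1.44, adjusted p = 0.00211). The other 3 calls depended on single embryos. The difference of Lef1, 1.18, came to 0.98 without E9.5 embryo 2. That of the receptor Fzd2, also 1.18, lost the call without any of 5 embryos, with adjusted p up to 0.14 (E11.5 embryo 2). That of Znrf3, 1.09, had an adjusted p of 0.191 without E11.5 embryo 2 and 0.184 without E10.5 embryo 1, and a size of 0.98 without E9.5 embryo 1, and did not pass by edgeR (adjusted p = 0.136). Lgr4, a receptor for R-spondin, was the member that was lower. No lung sample exceeded 0.10, no cell expressed it, and all 6 samples lay below every sample of the other organs, whose means were 1.85 in intestine, 0.95 in liver and 0.83 in skin (difference -1.17, SE 0.21, adjusted p = 7.99e-05).

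Other signalling lists held 1 gene called by limma each, where 2.09% of all genes were called. Of 23 tested genes of BMP and TGF-beta response, Id3 was higher (difference 1.8, adjusted p = 0.0078), by 3.51 against intestine and by 0.26 against skin (adjusted p = 0.909), and it lost the call without E10.5 embryo 2 (adjusted p = 0.0579). Of 10 genes of hedgehog response, Gas1, a co-receptor, was lower (-1.15, adjusted p = 5.73e-05), with a skin mean of 3.64 and means of 0.36 and 0.24 in intestine and liver. Neither Id3 nor Gas1 passed by edgeR (adjusted p = 0.0518 and 0.0512), which called 0 of the 23 and, of the 10, 2 higher and 0 lower. Of 15 retinoic acid genes, Rbp4, the carrier of retinol that liver secretes, was lower by 3.52, and edgeR called 2 higher and 2 lower. Crabp2, which carries retinoic acid in the cell, lay between 2.70 and 6.00 in lung and did not pass (0.98, adjusted p = 0.234).

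Genes of the mature lung were detectable at these ages. Of 16 surfactant and alveolar genes, 4 were at 0 in all 52 cells, and of 12 tested, Cldn18 and Sftpc were higher, with a median of 0.34. By edgeR, 6 of the 12 were higher and 0 lower. Sftpc, surfactant protein C, was at 0 in both E9.5 embryos, 3.4 and 1.90 at E10.5, and 1.78 and 2.45 at E11.5, and it was at 0 in every sample of the other organs (difference 1.59, adjusted p = 5.57e-07). It was expressed in 0 of 15 cells at E9.5, which allows a share of up to 20%, in 9 of 16 at E10.5 (56.2%) and in 9 of 21 at E11.5 (42.9%). In lung mesenchyme, which should lack it, at least 1 UMI was found in 14.4% of 125 cells against 42.3% of the 52 epithelial cells, at median depths of 261279 and 256424 UMIs.

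Cldn18, a tight junction protein of lung and stomach, was at 0.80 and 1.03 at E9.5 and between 2.33 and 3.38 later, above every other organ in all 6 samples (difference 2.18, adjusted p = 1.39e-11). Sftpb and Sftpa1, the surfactant proteins B and A, had means of 0.65 and 0.67 in lung, were at 0.00 in the other organs, and passed the test on p but not on size (0.65, adjusted p = 0.000198; 0.66, adjusted p = 0.000237). They were expressed in 16 and 13 cells, and neither had its highest value at E11.5. Of 20 airway and neuroendocrine genes, 13 were at 0 in all 52 cells. Of the 11 tested, limma called Uchl1 alone, which was higher (1.13, adjusted p = 0.0128), against intestine by 0.04. It lost the call without E10.5 embryo 2 (adjusted p = 0.09) or E11.5 embryo 1 (adjusted p = 0.0593). By edgeR, 2 of the 11 were higher and 1 lower.

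In the list of epithelial adhesion genes and keratins, 5 of 38 were higher and 4 lower, with a median of -0.03. Epcam (5.59 to 6.37), Cldn3 (3.1 to 4.76), Cldn6 (5.93 to 7.02), Crb3 (2.42 to 4.78) and Cldn9 (0.68 to 3.37) were the 5 that were higher. Epcam, Cldn3 and Cldn6 were not called against intestine, with differences of -0.41, -0.30 and -0.32, and stood above liver by 3.5, 3.74 and 3.87. Krt19 was lower, with a lung range of 0.98 to 2.27 against means of 5.04 in intestine and 4.07 in skin (difference -1.59, adjusted p = 0.000443), as were Perp, Dsp and Krt20. Dsp lost the call without either E10.5 embryo (adjusted p = 0.0689 and 0.0521). By edgeR, Cldn6, Krt19, Perp and Dsp did not pass (adjusted p = 0.0744, 0.0927, 0.157 and 0.249). E-cadherin, Cdh1, lay between 2.65 and 3.07 and did not pass (0.21, adjusted p = 0.563).

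Of 28 basement membrane and integrin genes, Col4a6, a chain of collagen IV, was higher (1.05, adjusted p = 4.38e-07), but only by 0.85 without E9.5 embryo 2. This 1 call is 3.57% of the list, against 2.09% of all genes. By edgeR, 5 of the 28 were higher and 0 lower. Of 20 mesenchymal genes, 3 were lower and Sparc was higher (1.4, adjusted p = 0.039), and the median was -0.28. Sparc missed the call when any of 5 embryos was left out, with adjusted p up to 0.211 (E11.5 embryo 2), and by edgeR (adjusted p = 0.0776). Among those lower, Fn1 and Cdh2, fibronectin and N-cadherin, differed by -1.61 and -1.51 (adjusted p = 0.00113 and 3.67e-05), and against skin by -0.61 and 0.03, neither of them called. Vim differed by -1.30 (adjusted p = 0.0308) and missed the call when any of 5 embryos was left out, with adjusted p up to 0.166 (E9.5 embryo 3).

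Of 39 Hox genes, 25 were at 0 in all 52 cells. Against the mean of the other organs, limma called 0 of the 33 tested, with 4 at an unadjusted p under 0.05, and edgeR called 4. Over all genes, 3279 of 15608 had such a p. Hoxc4 came nearest, at 2.51 in E9.5 embryo 2 and 0.38 to 1.69 in the rest (difference 0.94, adjusted p = 0.00257). Hoxb2 had a lung mean of 1.0 ± 0.51 and differed by 0.71 (adjusted p = 0.0679). Of 23 heterochronic and growth genes, Dlk1 was lower (-1.30, adjusted p = 0.00752, and 0.0713 without E11.5 embryo 2), with 5.49 in liver and 1.20 in lung. Hmga2, which is high in early progenitors, was expressed in 52 of 52 cells at 4.63 ± 0.24 and differed by 0.95 (adjusted p = 0.00651), just under the size required. Of 19 glycolytic genes, Slc2a1, a glucose transporter, was lower (-1.01, adjusted p = 0.0425), a call that was lost without 5 of the 7 embryos in turn, with adjusted p up to 0.175 (E11.5 embryo 1). Neither Dlk1 nor Slc2a1 passed by edgeR (adjusted p = 0.478 and 0.0701), which called 1 of the 23 higher, 0 lower, and 0 of the 19.

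The genes lower in lung epithelium than in the mean of the other organs, which includes liver, were led by secreted liver proteins. Of 14 hepatoblast genes, 12 were lower and none higher, with a median of -2.52, and edgeR called 7 lower. Against liver all 14 were lower, against intestine 5, and against skin 0 (median 0.14). Ttr, the thyroid hormone carrier, was at 8.02 in liver, 4.28 in intestine and 0.67 ± 0.66 in lung (difference -3.45, adjusted p = 5.6e-14). The others named by size were Rbp4 (-3.52), Apoe (-3.51), Ambp (-3.49), Serpina1b (-3.35), Afp (-3.34), Trf (-3.29) and Serpina1a (-3.14). In intestine, all 8 genes had means between 2.93 and 4.57. In skin, 7 had means of at most 0.13, and Apoe had 3.1. Serpina1a and Serpina1b belong to a family of similar copies, and their split of reads is uncertain. By edgeR, Afp, Ambp and Serpina1b did not pass (adjusted p = 0.081, 0.088 and 0.116).

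Across the 3 days, the genes of lung bud epithelium that fell included a glucose transporter and an escort of lactate transporters, and those that rose included secreted matrix proteins and a claudin. Of 14405 genes tested, 110 had a slope of at least 0.5 per day at an adjusted p of 0.05 (0.764%), of which 45 rose (0.312%) and 65 fell (0.451%). By edgeR the counts were 2 rising and 24 falling, and within HiSeq 4000 embryos 17 and 27. With 2 embryos a day, the count and its split moved when single embryos were left out, to 21 rising and 17 falling without E11.5 embryo 2, 16 and 23 without E9.5 embryo 2, 51 and 200 without E9.5 embryo 3 and 90 and 65 without E11.5 embryo 1. With at least 5 cells per embryo, 16 rose and 12 fell. Of the 26 genes named for a called slope, 9 kept the call without each embryo in turn, and those are described first. Of these 9, Slc2a3, Fam183b, Emb and Jmjd6 also passed by edgeR, the last pair with adjusted p = 0.00661 and 0.0182, but Emb and Jmjd6 were not called with at least 5 cells per embryo.

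Slc2a3, the high-affinity glucose transporter GLUT3, had levels of 5.79 and 5.53 at E9.5, 2.83 and 2.76 at E10.5, and 0.92 and 0.57 at E11.5. The days did not overlap, and the slope was -2.46 per day (SE 0.28, adjusted p = 1.15e-05). It was called under each of the 17 alternatives tried. The slope did not pass as different from those of the other organs (-1.11, adjusted p = 0.172), and skin had the highest levels, with a mean of 5.84.

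Fam183b was at 5.01 and 3.81 at E9.5, 2.39 and 2.02 at E10.5, and 0.28 and 0.00 at E11.5, a slope of -2.13 (SE 0.21, adjusted p = 1.15e-06). Intestine kept it at 3.29 to 6.11, liver and skin stood near 0, and the slope differed from that of the others by -2.53 (adjusted p = 6.54e-07, but 1 by edgeR). Emb, embigin, which escorts lactate transporters to the membrane, fell from 5.32 and 4.41 through 3.63 and 2.97 to 1.93 and 1.63 (slope -1.54, adjusted p = 0.000412). Jmjd6, a nuclear hydroxylase, fell from 3.72 and 3.26 through 1.72 and 2.33 to 0.88 and 0.36 (slope -1.43, adjusted p = 0.000655). In these 3 genes, no sample at E11.5 reached the lowest one at E9.5.

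Fmod, fibromodulin, a small proteoglycan of the matrix, rose from 0.00 and 0.22 at E9.5 through 1.30 and 0.34 to 3.24 and 3.51 at E11.5 (slope 1.63, SE 0.22, adjusted p = 0.000113). Its mean over embryos was 1.44 in the epithelium and 0.37 in lung mesenchyme, a difference that was not tested. Smoc2, a secreted calcium-binding protein, rose from 0.61 and 0.03 through 0.80 and 1.21 to 2.74 and 3.91 (slope 1.5, adjusted p = 0.000486). Cldn10, a claudin of tight junctions, was at 0.00 in the first 3 embryos, 0.32 in E10.5 embryo 2, and 2.22 and 3.02 at E11.5 (slope 1.31, adjusted p = 3.59e-05). These 3 slopes did not pass by edgeR (adjusted p = 0.135, 0.107 and 0.118), nor when E9.5 was set against the later days.

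Skin epithelium also had its higher Fmod values late, with 0.05 and 0.36 at E9.5 and 2.77 and 1.51 at E11.5. The lung slope of Fmod differed from the mean of the other organs by 1.36 (adjusted p = 0.00902), which was not called without E11.5 embryo 2 (1.07, adjusted p = 0.218) or E9.5 embryo 2 (1.51, adjusted p = 0.059). That of Smoc2 did not pass (1.05, adjusted p = 0.0838), and that of Cldn10 did (1.35, adjusted p = 0.000439, but 1 by edgeR). Ly6h, a membrane-anchored protein, rose from 0.48 and 0.69 through 1.52 and 1.90 to 2.31 and 3.37 (slope 1.13, adjusted p = 0.000326, and 0.636 by edgeR).

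Mgp, matrix Gla protein, rose from 0.00 and 0.05 through 0.86 and 1.39 to 2.49 and 2.19 (slope 1.16, SE 0.09, adjusted p = 4.76e-09). It is on the list of lung mesenchyme genes, and lung mesenchyme had a mean of 4.54. In the epithelium it had at least 1 UMI in 1 of 15 cells at E9.5, 16 of 16 at E10.5 and 21 of 21 at E11.5, with a highest count of 49 UMIs in a cell against 1948 in mesenchyme. The slope exceeded that of the other organs by 1.16 (adjusted p = 1.35e-07). By edgeR neither passed (adjusted p = 0.336 for the slope and 0.692 for the difference), and the slope was not called in lung epithelium alone. How far free transcripts of the mesenchyme entered these counts was not tested.

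**Figure D3:**
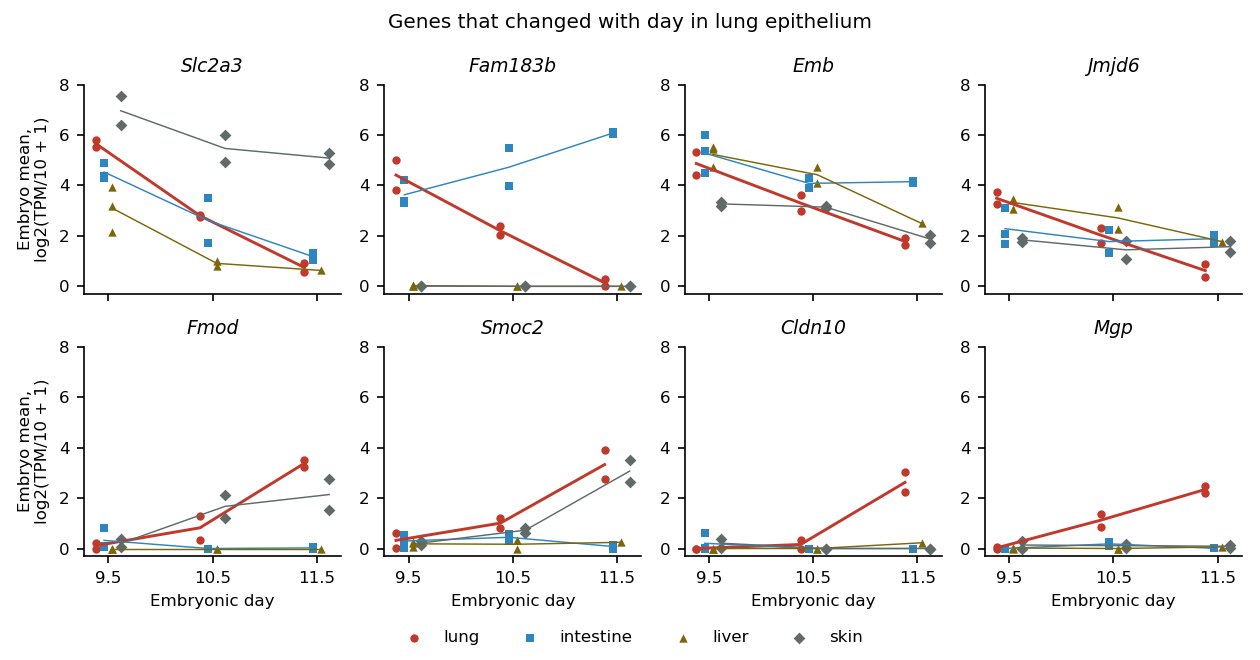
Level, as log2(TPM/10 + 1), against embryonic day for the 4 falling genes (Slc2a3, Fam183b, Emb, Jmjd6) and the 4 rising genes (Fmod, Smoc2, Cldn10, Mgp) with the largest slopes that stayed called without each embryo. Points are embryo means of epithelial cells, lines join the means of a day, and colours are organs. Lung Slc2a3 goes from 5.79 and 5.53 to 0.92 and 0.57, and lung Cldn10 from 0.00 to 2.22 and 3.02.

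The other slopes of the 26 lost the call without at least 1 embryo, and none of them passed by edgeR. Igfbp5 rose by 1.66 per day (adjusted p = 0.00457, and 0.0705 without E11.5 embryo 1). Acta2, smooth muscle actin, was at most 0.55 in the first 4 embryos and 3.68 and 2.44 at E11.5 (slope 1.4, adjusted p = 0.00876, and 0.123 without E11.5 embryo 1). Crnde, a long non-coding RNA, rose by 1.16 (adjusted p = 0.0165, and 0.143 without E11.5 embryo 2). Falling genes of this kind were Arg1 (-1.60, adjusted p = 0.0439, and 0.567 without E9.5 embryo 2), Ifitm1 (-1.45, adjusted p = 0.0351, and 0.659 without E9.5 embryo 2) and the cardiac myosin light chain Myl7 (-1.63, adjusted p = 0.0201, and 0.336 without E9.5 embryo 2). Igfbp5 and Acta2 passed within HiSeq 4000 embryos (adjusted p = 0.000319 and 0.00921), and Arg1, Ifitm1 and Myl7 did not. However, Igfbp5 and Acta2 were not called for E9.5 against later days, and Acta2 was not called with at least 5 cells per embryo.

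By role, the calls are read against the 0.764% of all tested genes with a called slope. Counts at an unadjusted p under 0.05 are read against 1772 of all 14405 tested genes. By edgeR, 26 of the 14405 slopes were called. Of the 24 respiratory transcription factors, limma called 0 slopes, with 4 at an unadjusted p under 0.05, and edgeR called 0, and the median slope was 0.01. Foregut factors had 2 calls of 14, as Isl1 fell from 2.88 and 1.88 through 1.41 and 1.95 to 0.59 and 0.00 (slope -1.04, adjusted p = 0.0041, and 0.159 without E11.5 embryo 2) and Sox2 rose. Among 21 ligands, the axon guidance gene Ntn1 rose by 0.51 (adjusted p = 0.0226, and 0.129 without E9.5 embryo 2) and the semaphorin Sema3c fell by 1.14 (adjusted p = 0.0276, and 0.311 without E11.5 embryo 2). Hhip, which binds hedgehog ligands and is induced by them, was the 1 of 10 hedgehog genes with a slope, from 0.12 and 0.32 through 0.49 and 1.52 to 1.31 and 2.93 (0.95, adjusted p = 0.0175, and 0.392 without E11.5 embryo 2). Both surfactant genes that limma called higher in lung also had a rising slope, Sftpc of 1.06 (adjusted p = 0.0145) and Cldn18 of 0.91 (adjusted p = 0.0121). For Sftpc, neither level at E11.5 reached the higher of those at E10.5. Both lost the call without E9.5 embryo 2 (adjusted p = 0.35 and 0.361).

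Of 19 glycolytic genes, Slc2a3 and Pfkl fell and none rose, and the median slope of -0.42 per day lay below that of all genes, -0.01. Pfkl, liver phosphofructokinase, fell from 4.17 and 3.39 to 2.63 and 1.35 (slope -0.89, adjusted p = 0.0432, and 0.469 without E11.5 embryo 2). Ldha ran from 8.5 and 8.25 to 7.45 and 6.35 and Aldoa from 7.26 and 6.51 to 5.54 and 4.95 without passing (adjusted p = 0.104 and 0.0555). limma called 0 of 19 glycolytic genes as different in slope from the other organs, with 3 at an unadjusted p under 0.05, and edgeR called 0. Over all genes, 1326 of 14405 slope differences had such a p. The deepest embryo, E9.5 embryo 2, had the highest level of most of these genes.

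Lists without a called slope were those of FGF response (0 of 20, 1 at an unadjusted p under 0.05), Wnt response (0 of 28, 5), BMP and TGF-beta response (0 of 21, 5), retinoic acid (0 of 14, 5), airway genes (0 of 9, 0) and adhesion genes (0 of 37, 4), with 0 by edgeR in each. Id1, a BMP target, came nearest, from 4.79 and 3.86 through 2.23 and 2.43 to 0.95 and 1.83 (slope -1.46, adjusted p = 0.0509). Of 22 heterochronic and growth genes, limma called 0, with 6 at an unadjusted p under 0.05, and edgeR called 1 falling. Lamb3, a laminin chain, rose by 0.60 among 28 basement membrane genes (adjusted p = 0.0034, and 0.113 without E11.5 embryo 2), and Hoxa2 fell by 0.63 among 29 Hox genes (adjusted p = 0.00403, and 0.189 without E9.5 embryo 2). In both of these lists edgeR called 0 slopes.

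The slope itself differed from the mean slope of the other 3 organs in 44 genes (0.305%), 23 upwards (0.16%) and 21 downwards (0.146%), and in 16 within HiSeq 4000 embryos. The split was 57 upwards and 23 downwards without E11.5 embryo 1, 19 and 38 without E9.5 embryo 3, 12 and 13 without E9.5 embryo 2, and 8 and 5 without E11.5 embryo 2. Fam183b, Cldn10 and Mgp were the 3 of 19 named genes that kept this call without each embryo. Rfx6, a factor of gut and pancreatic endocrine cells, fell in lung from 2.47 and 2.02 through 1.82 and 1.39 to 0.44 and 0.00 while intestine stayed between 0.42 and 1.95, and its slope differed by -1.15 (adjusted p = 0.00459, and 0.244 without E11.5 embryo 2). The cyclin Ccnd2 had no called slope in lung (0.39, adjusted p = 0.766), and differed from the others by 1.83 (adjusted p = 0.0224, and 0.329 without E11.5 embryo 2).

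Smaller named differences in slope included those of genes with high levels in several organs. Nnat, neuronatin, an imprinted gene, ran from 4.83 and 3.76 at E9.5 to 5.94 and 6.20 at E11.5 (difference in slope 1.53, adjusted p = 0.0382). Bex4 ran from 6.59 and 7.70 to 4.19 and 5.18 and fell by 1.23 per day (adjusted p = 0.00183). Bag2, a co-chaperone, fell from 3.17 and 3.14 through 2.48 and 2.72 to 1.49 and 1.18 (slope -0.91, adjusted p = 0.00634). The glutaredoxins Glrx and Glrx2 had slopes of -1.10 and -0.97 (adjusted p = 0.0432 and 0.0194), and E9.5 embryo 3 had the highest Glrx level, 4.35, against 1.46 in E9.5 embryo 2. Each of these differences lost the call without at least 1 embryo. The lung slopes of these genes without single embryos are not given here.

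The mix of Sox9 and Sox2 cells differed between the days. At E9.5, 13 of 15 cells expressed Sox9 without Sox2, 1 expressed both and 1 neither. Of these, all 12 cells of embryo 3 had Sox9 only, while the 3 cells of embryo 2 were 1 Sox9 only, 1 both and 1 neither. At E10.5 all 16 cells expressed Sox9 alone. At E11.5, 10 of 21 cells expressed Sox2 alone, 5 both, 5 Sox9 alone and 1 neither. The median level of Sox9 over cells was 3.72, 4.89 and 0.99 on the 3 days, and that of Sox2 was 0.00, 0.00 and 2.63. Both E11.5 embryos held all 3 kinds of cell, with 9 Sox2 only, 4 both and 4 Sox9 only in embryo 1, and 1 of each in embryo 2.

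Over embryos, Sox2 had levels of 1.05 and 0.05 at E9.5, 0.00 and 0.02 at E10.5, and 2.58 and 1.76 at E11.5. The E11.5 values lay above all earlier ones, and the slope was 0.81 per day (SE 0.19, adjusted p = 0.0362). The call was lost without E11.5 embryo 1 (0.44, adjusted p = 0.317), E11.5 embryo 2 (adjusted p = 0.227) or E9.5 embryo 3 (adjusted p = 0.0944). It was also lost with cells thinned to 100000 UMIs (0.59, adjusted p = 0.133), by edgeR (adjusted p = 0.836), without the gene filter, for E9.5 against later days and in lung epithelium alone. The slope was 1.22 (adjusted p = 0.00132) without E9.5 embryo 2, where 1 of 3 cells stood at 3.0. Sox9 had no called slope (-0.37, adjusted p = 0.845). Sox2 was expressed in 0 of 78 skin, 1 of 47 liver and 4 of 109 intestinal epithelial cells, and in 2.4% of lung mesenchymal cells.

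Across the 21 cells at E11.5, Spearman's rho between Sox2 and Sox9 was -0.70, between Sox2 and Etv5 -0.66, and between Sox2 and Sftpc -0.47, while Sox9 went with Etv5 at 0.61 and with Sftpc at 0.60. Between Sox2 and Nkx2-1 it was 0.01. These are descriptions over cells of which 18 came from 1 embryo, and depth moved with the same axis, since the total UMIs of a cell had rho -0.46 with Sox2 and 0.41 with Sox9. The part of depth in the pattern was not tested. Within E11.5 embryo 1, the 13 cells with Sox2 had a median Etv5 level of 2.06 against 5.49 in the 5 cells without it, and a median Id2 level of 2.81 against 5.57. Nkx2-1 had medians of 3.84 and 3.54 in the 2 sets, and Cldn10 2.21 and 2.22.

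Tbx1, a T-box factor of the pharyngeal region, was picked out after its values were seen. It was at 0.00 and 0.17 at E9.5, 0.66 and 0.03 at E10.5, and 2.18 and 2.35 at E11.5, and it stood at 0.00 in intestine and at most 0.10 in the other organs (slope 1.09, SE 0.12). It was expressed in 1 of 15, 1 of 16 and 13 of 21 cells on the 3 days. At E11.5, 11 of the 15 cells with Sox2 and 2 of the 5 with Sox9 alone expressed it, with rho 0.48 between Sox2 and Tbx1. Krt15 and Trp63, which mark airway basal cells, were expressed in 2 and 1 of the 52 cells.

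**Figure D4:**
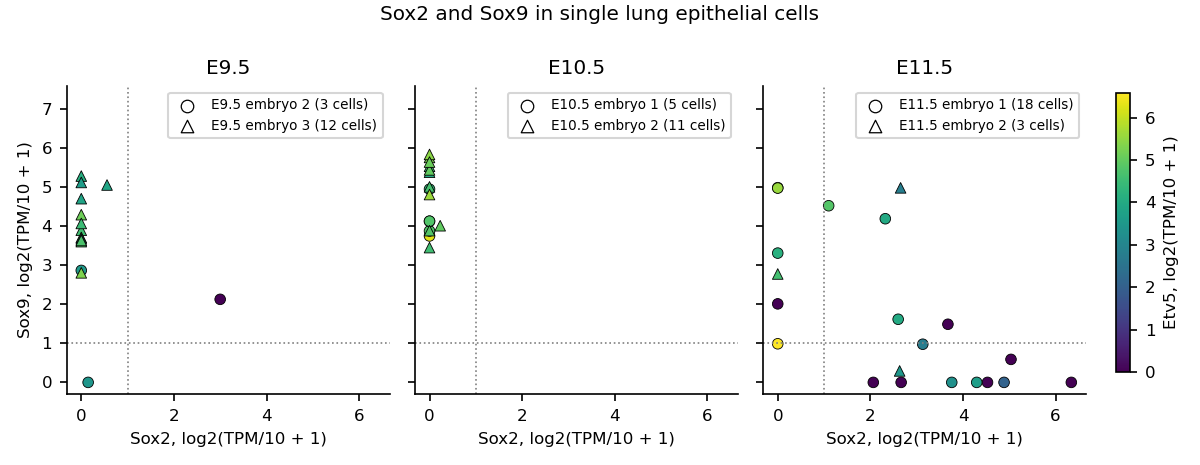
Level of Sox9 (vertical axis) against Sox2 (horizontal axis), as log2(TPM/10 + 1), in each of the 52 lung epithelial cells, with 1 panel per day, shapes for embryos and colour for the level of Etv5. Dotted lines mark the level of 1 from which a gene counts as expressed. All 16 cells at E10.5 lie in the Sox9 corner, and the 21 cells at E11.5 run from Sox9 to Sox2.

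Transcripts of other cell types were present in these cells and their sums differed by embryo. The 12 erythroid genes summed to 1776 and 637.1 TPM in the E9.5 embryos, 0.488 and 13.39 TPM at E10.5 and 124.3 and 16.4 TPM at E11.5. Embryonic globin Hbb-bh1 had UMIs in 15 of 15 epithelial cells at E9.5, and also in all 58 lung mesenchymal cells of that day, and in none of the 16 epithelial cells at E10.5. Hba-x, another embryonic globin, fell with a slope of -2.21 (adjusted p = 0.0484, and 0.526 without E9.5 embryo 2). limma called 0 of 8 erythroid genes between organs, with 0 at an unadjusted p under 0.05, and edgeR called 1 higher. Hbb-y, an embryonic globin with 6.18 and 4.95 at E9.5 and at most 2.06 later, had a slope of -2.14 (adjusted p = 0.107).

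Hepatoblast genes summed to 243.6 TPM in E9.5 embryo 3, 100.7 TPM in E9.5 embryo 2 and 20.21 to 44.63 TPM later, against 12240 to 53940 TPM in liver epithelium. Afp, alpha-fetoprotein, had 8 to 57 UMIs in each of the 12 epithelial cells of E9.5 embryo 3, whose library also held liver cells, and UMIs in 28 of 28 mesenchymal cells of the same library. In E9.5 embryo 2, which was not pooled with liver, it had 1 to 7 UMIs in each cell at greater depth. The share of these values that came from transcripts of liver cells was not tested.

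Genes of lung mesenchyme summed to between 41.93 and 148.5 TPM in the epithelium and 1334 to 4217 TPM in lung mesenchyme, and 6 to 11 of the 12 were detected in an embryo. limma called 0 of 12 against the mean of the other organs, with 3 at an unadjusted p under 0.05, and edgeR called 4 higher. Osr1, a transcription factor of foregut mesoderm on this list, was at 0.91 ± 0.43 in the epithelium and 4.85 in lung mesenchyme. Acta2 had 4 to 104 UMIs in each of the 21 E11.5 epithelial cells and 3 to 4206 in mesenchymal cells of that day. The part of free transcripts in its slope was not tested. Endothelial genes summed to 11.04 to 72.95 TPM, immune genes to 0.753 to 13.98 TPM, neural genes to 1.65 to 15.42 TPM, and mesothelial and cardiac genes to 8.81 to 206.2 TPM. For these 4 lists limma called 0 genes against the mean of the other organs, with 0, 2, 1 and 1 at an unadjusted p under 0.05, and edgeR called 0. Over all genes, 3279 of 15608 had such a p. Against single organs, Egfl7 was lower than in liver and Upk1b lower than in skin. Of the endothelial, immune and cardiac lists, the 2 members with the highest lung means were Egfl7 (1.28) and Esam (0.29), Coro1a (0.19) and Tyrobp (0.13), and, beside Myl7, Tnni1 (0.18). In the neural list Tubb3 had a mean of 0.22.

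**Figure D5:**
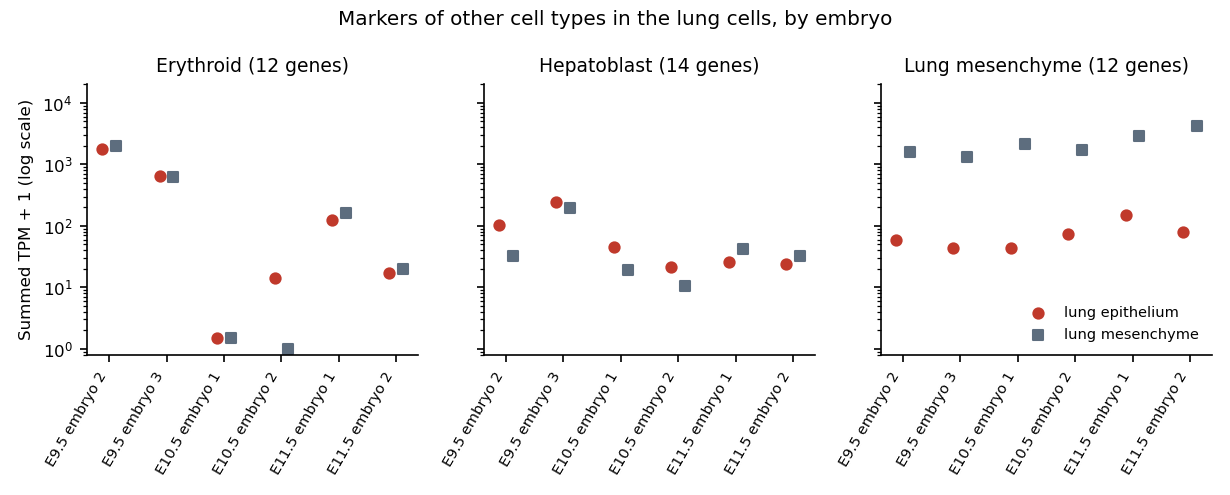
Summed TPM + 1 (log axis) of the erythroid, hepatoblast and lung mesenchyme lists in lung epithelium (circles) and lung mesenchyme (squares) of each embryo. In the epithelium, erythroid genes reach 1776 TPM at E9.5 and 0.488 and 13.39 TPM at E10.5, hepatoblast genes are highest in E9.5 embryo 3 at 243.6 TPM, and lung mesenchyme genes stay at or under 148.5 TPM.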

How the data were processed

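Single cells of mouse embryos were sequenced by a modified STRT protocol that counts 3′ ends with UMIs. The authors mapped reads to mm10 with TopHat 2.0.12, counted uniquely mapped reads with htseq-count, and deposited TPM that are UMI counts of a gene scaled to 1000000 in the cell without gene length (CPM in effect). CASAVA 1.8 is named in the processing notes of the submitters, and the annotation and the strand setting are not given in the sources used here. Of the cells read here, 946 had the number of genes that the authors required. Counting 3′ ends without length allows a gene to be compared between cells but not levels between genes.

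Of 969 cell columns read, covering 23154 genes, 100% of the values above 0 came back as whole UMIs within 0.05, and 0 cell names were shared by samples. In 6 pairs of cells the columns were identical and the second copy was left out, which took 1 epithelial cell each from intestine, liver and skin. Organ, embryo and type came from the cell names and the published annotation. Differences between organs were tested with limma 3.58.1 (R 4.3.3) on 47 embryo means of log2(TPM/10 + 1) of epithelial and mesenchymal cells in 8 groups, and slopes on day on 25 embryo means of epithelial cells, each from at least 3 cells, for genes expressed in at least 3 of the cells compared. Calls needed a Benjamini-Hochberg adjusted p under 0.05 and a log2 difference of at least 1, or a slope of at least 0.5 per day. edgeR 4.0.16 on summed UMIs, other filters, thinning to 100000 UMIs, HiSeq 4000 embryos alone and leaving out each embryo were alternatives. The fits were tested on simulated data.

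Organs of 1 embryo came from the same animal. The correlation of their deviations ran from -0.072 to 0.335 over 17 pairs around the mean of all embryos (6 over 0.1), and from -0.107 to 0.251 over 16 pairs around the mean of the day (6 over 0.1). Where both organs had the same 2 embryos on a day, deviations from the mean of the day mirror each other. Such embryos give the same correlation, so the 16 pairs are not independent. The embryo as a block was therefore an alternative.

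Named genes were the 4 markers, the 12 highest and 8 lowest called genes between organs, the 8 largest called slopes and slope differences in each direction, and of each gene list the called members, at most 6 by size, or the 2 highest in lung where none was called. Other genes that the text gives (further list members, such as Foxa1, Id2, Spry1, Ldha, Hmga2 or Sftpb, the genes around Nkx2-1, and Tbx1) were picked after their values were seen. Results for 2 of these genes are not reported here. The cells and the lists were chosen with earlier results of these data known.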

Additional observations from a re-analysis of the deposited data

Results flagged for a closer look

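In 11 of 63 groups of 6 embryo values checked, 1 embryo lay far from the others. The rule flags about 1 in 20 groups by chance only where groups are independent and values are not tied. Several groups here were liver genes of the same embryos, and some, such as that of Wnt6, held tied values. The number of flags was therefore not compared with chance. In E9.5 embryo 3, whose library also held liver cells, the liver genes Afp (level 3.21), Apoa2 (1.92), Hhex (1.32), Onecut2 (0.38) and Serpina1a (0.31) lay above the other lung samples, as did the summed hepatoblast genes (243.6 TPM). In E9.5 embryo 2, the median depth (924171 UMIs), the summed erythroid genes (1776 TPM) and Wnt6 (level 1.16) lay above the others, and Wnt7b (0.90) below them. In E11.5 embryo 1, the summed lung mesenchyme genes (148.5 TPM) lay above. The causes were not tested.

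For 19 named genes the slope in lung epithelium differed from the mean slope of the other 3 organs by limma with Benjamini-Hochberg adjustment. It was higher in lung for Igfbp5 (1.92 per day, adjusted p = 0.00856), Ccnd2 (1.83, 0.0224), Acta2 (1.61, 0.0169), Nnat (1.53, 0.0382), Fmod (1.36, 0.00902), Cldn10 (1.35, 0.000439), Mgp (1.16, 1.35e-07), Hhip (1.11, 0.0268) and Lamb3 (0.68, 0.00786). It was lower for Fam183b (-2.53 per day, adjusted p = 6.54e-07), Glrx (-1.37, 0.0406), Glrx2 (-1.26, 0.0128), Rfx6 (-1.15, 0.00459), Bex4 (-1.08, 0.0405), Bag2 (-1.07, 0.00999), Ttr (-1.07, 0.027), Isl1 (-1.06, 0.0246), Hoxa2 (-0.60, 0.0382) and Klf1 (-0.53, 0.00902). Cldn10, Fam183b and Mgp were the 3 that stayed past the threshold without each embryo in turn.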

How the results depend on the processing

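With log2(TPM + 1), the counts of called genes were 991 against the mean of the other organs, 698 against intestine, 2339 against liver and 1334 against skin. By edgeR on summed UMIs they were 814, 576, 1731 and 1019, and 26 for the slope on day and 12 for its difference from the other organs. The slope count was 28 with at least 5 cells per embryo, 72 with cells thinned to 100000 UMIs, 44 in HiSeq 4000 embryos, 55 for E9.5 against later days and 34 for lung epithelium alone. The count of slope differences was 24 with at least 5 cells, 16 in HiSeq 4000 embryos and 23 for E9.5 against later days. Without single embryos, the slope count ran from 38 (E11.5 embryo 2) to 251 (E9.5 embryo 3), with 39 without E9.5 embryo 2, and the count of slope differences from 13 (E11.5 embryo 2) to 80 (E11.5 embryo 1), with 25 without E9.5 embryo 2. The causes were not tested.

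With the embryo as a replicate block, which pairs organs of the same animal, the counts were 334, 370, 1027 and 684 between organs, 111 for slopes and 55 for slope differences. Among named genes, the block took the call from Slc2a1 and from no other.

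Of 100 called results for single genes, 32 kept the call under every alternative in which the gene was tested. These were 30 of 55 between organs, 2 of 26 slopes (Slc2a3 and Fam183b) and 0 of 19 slope differences. With only genes expressed in at least 10% of cells, 47 of the 55, 22 of the 26 and 16 of the 19 were tested. All of those kept the call, and the rest were filtered out. Directions turned for uncalled differences between organs and for Wnt6. Hba-x came to -0.0391 with log2(TPM + 1), -0.25 with at least 5 cells, -0.66 in HiSeq 4000 embryos, and -0.38 to 0.81 without single embryos. Hbb-y came to -0.17, -0.13 and -0.90 in the same settings, and -0.52 to 0.78 without single embryos. Myl7 ran from -0.0095 to 0.71 without single embryos, and Wnt6 came to 2.34 by edgeR. With 3 to 18 cells behind an embryo mean, low genes are limited by depth.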
